A study of Mus musculus with 2 samples.

Results

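The 8 genes described here encode secreted chemokines: Ccl2, Ccl7, Ccl8 and Ccl12, known as monocyte chemoattractants, Ccl6 and Ccl9, the eotaxin Ccl24, and the platelet factor Pf4. They were taken by symbol and make up 8 of the 31053 genes in each count matrix. Their raw molecule counts were followed in single cells of 2 mouse liver libraries. The Ctrl library came from uninjured C57BL/6 mice and the RES library from C57BL/6 mice after liver fibrosis had resolved. In both, mononuclear cells were prepared on Histopaque, material of 5 mice was pooled, and CD45+CD11b+ cells were sorted, so that both groups carry the same gate and hold no unsorted liver cells. CD45 marks leukocytes and CD11b marks myeloid cells and NK cells. The injuring agent, the time after injury, and the sex and age of the mice are not given in the sources used here. Since each group is 1 library of pooled mice, mice cannot be told apart, and every difference below is between these 2 libraries with no replicate check.

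Chemokines are small secreted proteins that steer migrating leukocytes through G protein-coupled receptors. Ccl2, Ccl7 and Ccl12 bind Ccr2, the receptor by which inflammatory monocytes leave the bone marrow and enter injured liver, and mouse Ccl8 is known mainly as a ligand of Ccr8. Ccl6 and Ccl9 are rodent chemokines of the Ccr1 ligand group, Ccl24 attracts eosinophils through Ccr3, and Pf4 is a CXC chemokine stored in platelet granules that some tissue macrophages also transcribe. In the liver, the Ccl2 and Ccr2 axis is best known for bringing monocytes into fibrotic tissue, where they become macrophages.

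The genes lie in 4 places in the mouse genome (GRCm38, genes of the GENCODE M21 annotation). Ccl2 (11:82035571-82037453, plus strand) and Ccl7 (11:82045712-82047525, plus strand) are neighbours, 8258 bp apart, and Ccl12 (11:82101845-82103400, plus strand) and Ccl8 (11:82115185-82116799, plus strand) follow on the same chromosome, 11784 bp apart. Ccl9 (11:83572919-83578636, minus strand) and Ccl6 (11:83587882-83593087, minus strand) form a second pair, 9245 bp apart. Pf4 (5:90772435-90773383, plus strand) lies 2371 bp from the platelet chemokine gene Ppbp, and Ccl24 (5:135569937-135573049, minus strand) stands elsewhere on chromosome 5. The 250 bases before the start of Ccl6 and of Ccl9 are shown because the levels of these neighbours were the most alike of any pair of members over the cell classes (given below). They come from RefSeq (GRCm38.p6), at chr11:83593088-83593337 for Ccl6 and chr11:83578637-83578886 for Ccl9, both on the minus strand, and capitals mark the longest run of bases that both hold.
Ccl6: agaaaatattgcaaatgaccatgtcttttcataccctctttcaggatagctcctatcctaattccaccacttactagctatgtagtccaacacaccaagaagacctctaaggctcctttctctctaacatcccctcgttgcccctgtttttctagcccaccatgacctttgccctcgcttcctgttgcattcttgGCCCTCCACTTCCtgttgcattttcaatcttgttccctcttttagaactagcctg
Ccl9: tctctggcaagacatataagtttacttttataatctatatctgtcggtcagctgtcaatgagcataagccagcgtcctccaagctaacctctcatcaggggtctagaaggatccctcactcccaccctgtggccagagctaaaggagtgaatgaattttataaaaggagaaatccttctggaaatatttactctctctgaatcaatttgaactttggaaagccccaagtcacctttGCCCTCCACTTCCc
The shared run of 13 bases starts 55 bases before the start of Ccl6 and 14 bases before that of Ccl9. It holds CACTTCC, a core sequence of ETS factors, which on either strand occurs in 8.55% of 32851 promoter windows of that length in the same table. Entries were present for 5 of the 8 members, and CACTTCC also stands 229 bases before Ccl12 and 11 bases before Pf4 and is not in the Ccl8 window. A match of letters describes the sequence and shows no factor bound there. Ccl2, Ccl7 and Ccl24 were not matched in that table.

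The libraries held 20379164 unique molecular identifiers (UMIs, counted RNA molecules) in 3691 barcodes for Ctrl and 34119806 in 4278 barcodes for RES. Quality and doublet filters left 3337 and 4011 cells, whose median depth was 4507 and 6360 UMIs. The deposited libraries share 56 barcodes, of which 49 were kept in both. Cells were placed in classes by marker gates that use none of the 8 genes. NK cells numbered 1526 in Ctrl and 1492 in RES, and monocytes and macrophages 1074 and 2037, which is 32.2% and 50.8% of kept cells. Classical monocytes (Ly6c2, Chil3, F13a1, Vcan, Ccr2) numbered 487 and 601, intermediate monocytes 170 and 168, and nonclassical monocytes (Ace, Treml4, Adgre4 and others) 283 and 516. Macrophages with the complement genes C1qa, C1qb and C1qc and under 5 UMIs of Arg1 and Spp1, here called without them, numbered 116 and 65. Macrophages at or above that minimum numbered 18 in Ctrl and 687 in RES, so their levels in Ctrl rest on very few cells. Conventional dendritic cells numbered 55 and 38 of type cDC1 and 180 and 112 of type cDC2. Near the gates, 46 of 1391 myeloid cells in Ctrl and 49 of 2210 in RES were 1 UMI short of the classical monocyte minimum. For the minimum on Arg1 and Spp1, the same held for 1 and 12 cells. The 7 Kupffer cell markers summed to 16.2 CPM and 16.6 CPM in monocytes and macrophages, and to 104 CPM and 31.7 CPM in macrophages alone. Single markers of this list went both ways in monocytes and macrophages (CPM of Ctrl, then RES). Lower in RES were Cd5l (7.96, 6.75; 66 and 141 UMIs), Vsig4 (2.05, 0.48) and Clec4f (0.60, 0.14; 5 and 3 UMIs). Higher were Folr2 (3.01, 5.31), Marco (0.24, 1.10), Timd4 (0.24, 0.53) and Cd163 (2.05, 2.30). The part of these Kupffer cell markers in the results was not tested. The eosinophil genes Epx and Prg2 had 0 UMIs there in both libraries.

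In pooled monocytes and macrophages, 6 of the 8 genes were expressed above 20 CPM (UMIs of the gene per 1000000 UMIs of the same cells) in either library and all 6 were at least 1.5-fold higher in RES. Over the 5969 genes past that minimum, 6.95% were at least 1.5-fold higher and 4.99% at least 1.5-fold lower. Ccl8 and Ccl12 did not reach the minimum. Ccl2 and Ccl7 passed the minimum through RES alone and so had to differ, and the count is only a description of these 6. Over all kept cells, 5 genes passed and 5 were higher, against 6.03% of 6231 genes higher and 3.72% lower, and there Ccl2 and Pf4 passed through RES alone. All levels below are CPM of the summed UMIs of a class, with exact 95% Poisson intervals, and ratios are RES over Ctrl with exact 95% intervals, which cover counting error only.

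**Figure D1:**
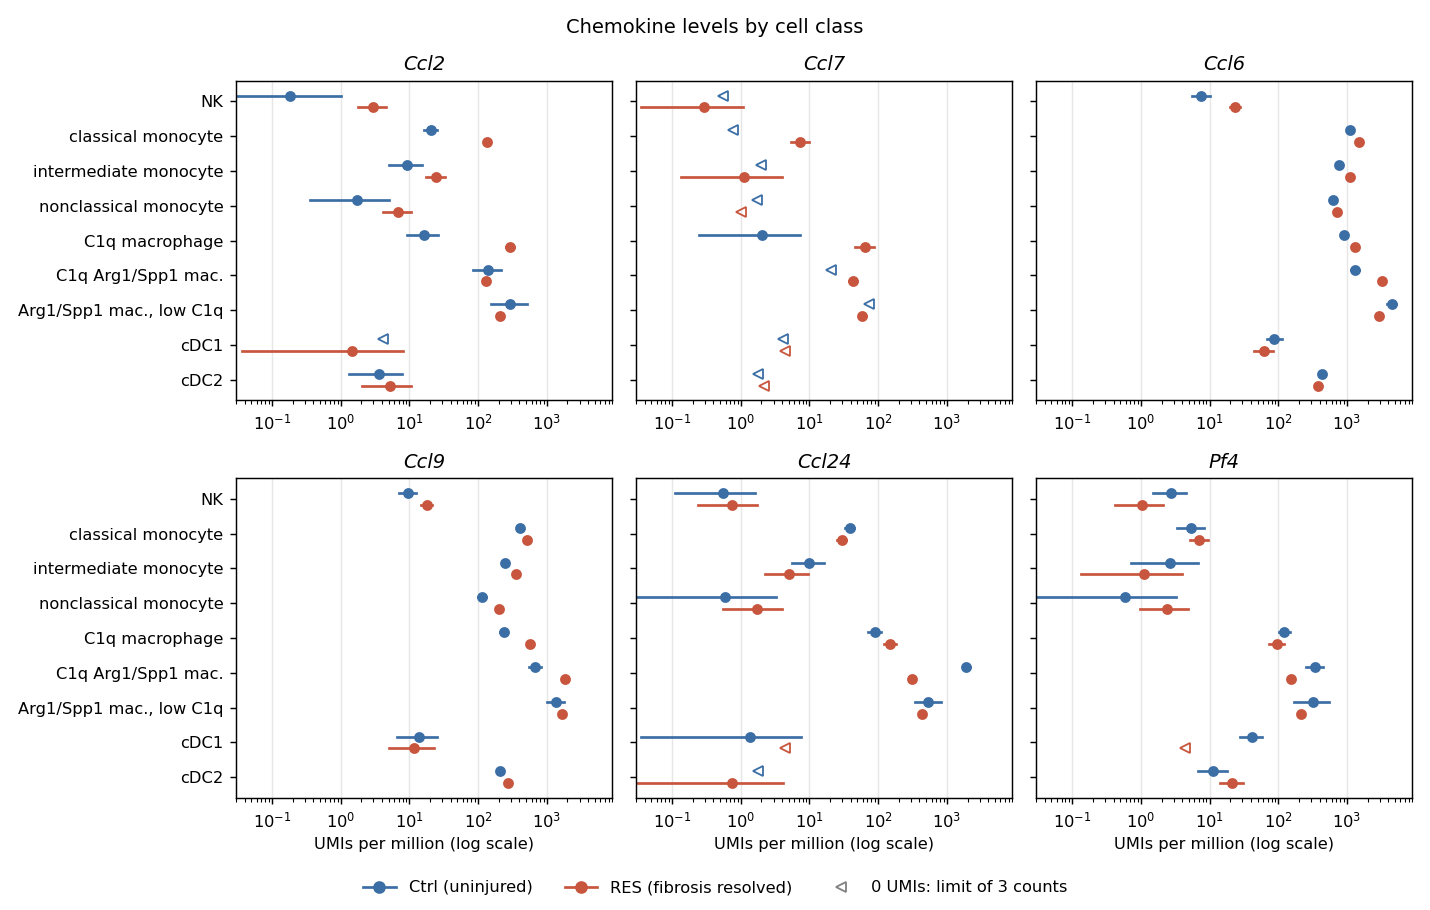
Level of 6 of the chemokine genes by cell class in the Ctrl and RES libraries, in CPM on a log axis; points are the level of 1 library and bars its exact 95% Poisson interval, and open triangles mark the limit that a count of 0 allows. Ccl6 and Ccl9 were counted in every monocyte and macrophage class, whereas Ccl7 in RES is near the floor outside macrophages and classical monocytes.

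The 4 genes of the monocyte chemoattractant group did not move as one. Ccl2 and Ccl7 were far higher in RES, Ccl12 was lower, and Ccl8 was almost undetected. Monocytes and macrophages held 144 Ccl2 UMIs in Ctrl against 2636 in RES, a level of 17.4 CPM (14.6 to 20.4) against 126 CPM (121 to 131). The log2 ratio was 2.86 (2.62 to 3.11). In classical monocytes the level went from 20.4 CPM in Ctrl to 136 CPM in RES, a log2 ratio of 2.74 (2.41 to 3.09). This made Ccl2 the 1 member of 4 past the minimum that was at least 1.5-fold higher in that class, where 3.57% of all genes were higher and 4.68% lower. Intermediate monocytes had 9.18 CPM and 24.3 CPM of Ccl2, with a log2 ratio between 0.51 and 2.39. There it was the 1 member of 3 past the minimum that was higher, against 5.31% of genes higher and 4.4% lower. Ccl2 passed the minimum in this class through RES alone, so the count is only a description. Nonclassical monocytes held 3 UMIs in Ctrl and 20 in RES, and the interval of the log2 ratio ran from 0.22 to 4.36. Of the 3 monocyte classes, the nonclassical one thus had the lowest level in both libraries.

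In macrophages as a whole Ccl2 stood at 41.2 CPM (30.3 to 54.6) in Ctrl and 175 CPM (167 to 184) in RES. Ccl2, Ccl7, Ccl6 and Ccl9 were at least 1.5-fold higher there and Ccl12 lower, of 7 past the minimum. Of all 6272 genes, 16.4% were higher and 16.4% lower. Ccl7 passed the minimum through RES alone and Ccl12 through Ctrl alone, so the count is only a description. Because 18 Ctrl and 687 RES macrophages carry Arg1 or Spp1, this pooled class differs in composition between the libraries. Within the Arg1/Spp1 gates the Ccl2 level was 172 CPM in Ctrl and 167 CPM in RES, a log2 ratio of -0.04 (-0.55 to 0.51). Of the 32 Ctrl UMIs there, 19 came from 1 cell and 12 from another, which the interval does not cover. In C1q macrophages without Arg1 or Spp1 the Ccl2 level was 16.3 CPM in Ctrl and 294 CPM in RES. Of those 185 RES UMIs, 114 came from 1 cell. In this gate 4 of 7 members past the minimum were higher (Ccl2, Ccl7, Ccl9 and Ccl24) and Ccl12 lower, against 10.2% and 12.9% of genes. Here Ccl2 and Ccl7 passed through RES alone and Ccl12 through Ctrl alone, so this count too is only a description. A single cluster of cells (cluster 8 of a clustering that left the 8 genes out) held the largest share of these C1q macrophages in both libraries, 53 of 116 and 30 of 65. Another 40 of the Ctrl cells were in cluster 21, with Ccl9 at 37.2 CPM and Ccl12 at 159 CPM, and 13 of the RES cells were in cluster 17, with 184 of the 185 Ccl2 UMIs. The part of this makeup in the ratios of the gate was not tested.

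Ccl7, which shares receptors with Ccl2, was close to absent in Ctrl. There were 2 UMIs in 2 cells of Ctrl and 547 UMIs in 55 cells of RES monocytes and macrophages, a log2 ratio of 6.76 with an interval of 4.90 to 9.81. Macrophages held 497 of the RES UMIs. Monocytes held 0 UMIs in Ctrl and 50 in RES, at least 10.5-fold higher when Ctrl is set at 3 counts. Classical monocytes held 48 of these 50, and nonclassical monocytes held 0 in both libraries. A single RES cell carried 166 UMIs of Ccl7, 30.3% of all in RES monocytes and macrophages. Without the 5 highest cells of each library, Ccl7 had 0 UMIs in Ctrl and 247 in RES, at least 32.7-fold higher.

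Ccl12, another Ccr2 ligand of the mouse, went the other way. Monocytes and macrophages had 47 UMIs in Ctrl and 19 in RES, with a log2 ratio of -2.64 (-3.49 to -1.84). Of the 47, 40 were in C1q macrophages and 27 in a single cell, and without the highest cell of each library the log2 ratio was -1.96 (-3.09 to -0.88). In C1q macrophages the counts were 40 in Ctrl and 2 in RES. In monocytes they were 7 and 11 UMIs, with a log2 ratio of -0.01 (-1.51 to 1.59). Ccl8 was represented by 1 UMI in Ctrl and 3 in RES over all kept cells, too few for a comparison.

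Ccl6 and Ccl9 were the members with a UMI in most monocytes and macrophages of both libraries before thinning. In Ctrl, Ccl6 stood at 943 CPM (923 to 965), and in RES at 2031 CPM (2012 to 2051), a log2 ratio of 1.11 (1.07 to 1.14). Ccl9 stood at 304 CPM (293 to 317) and 988 CPM (975 to 1002), a log2 ratio of 1.70 (1.64 to 1.76). Within the monocyte classes the ratios were much smaller. For Ccl6 the log2 ratio was 0.41 in classical, 0.52 in intermediate and 0.20 in nonclassical monocytes. For Ccl9 it was 0.34, 0.51 and 0.80 in the same order. Ccl9 in nonclassical monocytes (115 CPM and 201 CPM) was the 1 member of 2 past the minimum to exceed 1.5-fold there, where 6.08% of genes were higher and 3.03% lower. Over all monocytes together only Ccl2 of 4 members past the minimum did so, against 2.66% of genes higher and 2.52% lower. There Ccl2 passed through RES alone (13.5 CPM in Ctrl and 84.7 CPM in RES), so the count is only a description.

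Macrophages showed the larger differences for this pair. There Ccl6 went from 1077 CPM in Ctrl to 2986 CPM in RES, and Ccl9 from 330 CPM to 1676 CPM. In C1q macrophages without Arg1 or Spp1, the log2 ratio was 0.54 (0.40 to 0.68) for Ccl6 and 1.29 (1.04 to 1.53) for Ccl9. In C1q macrophages with Arg1 or Spp1 (10 Ctrl cells) it was 1.30 and 1.42. In Arg1/Spp1 macrophages low in C1q (8 Ctrl cells) Ccl6 was lower in RES, with a log2 ratio of -0.60 (-0.81 to -0.38). The direction of Ccl6 among Arg1/Spp1 macrophages therefore differed between these small Ctrl groups.

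The balance within the pair also differed by class. Of all Ccl6 and Ccl9 UMIs, Ccl9 made up 24.6% (23.7 to 25.5) in Ctrl monocytes and 24.9% (24.3 to 25.5) in RES monocytes. In macrophages its share was 23.5% (21.4 to 25.6) and 36.0% (35.5 to 36.4). Nonclassical monocytes went from 15.6% in Ctrl to 21.8% in RES, C1q macrophages without Arg1 or Spp1 from 20.8% to 30.5%, and cDC2 cells from 32.3% to 42.2%. Classical monocytes had 26.5% and 25.6%, with overlapping exact binomial intervals. A share within 1 library does not depend on how that library was scaled. The share nevertheless compares UMIs of genes of different length and shows no relative amount of RNA.

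Ccl24 and Pf4 were both higher in RES in the pooled class, and their ratios in its subsets ran in both directions. Over monocytes and macrophages, Ccl24 went from 67.0 CPM (61.6 to 72.8) in Ctrl to 174 CPM (168 to 180) in RES, a log2 ratio of 1.37 (1.25 to 1.51). In macrophages it was at 335 CPM and 357 CPM, a log2 ratio of 0.09 (-0.06 to 0.25), and in monocytes at 23.1 CPM and 18.3 CPM, a log2 ratio of -0.34 (-0.64 to -0.03). Thus neither macrophages nor monocytes alone showed the difference of the pool. Among C1q macrophages without Arg1 or Spp1 the log2 ratio was 0.75 (0.31 to 1.18). Within the Arg1/Spp1 gates it was -2.13 (-2.30 to -1.96), from 1628 CPM in 18 Ctrl cells to 372 CPM in 687 RES cells. There, the 2 highest Ctrl cells held most of the 303 Ctrl UMIs of Ccl24, and the first held 155.

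Over the same pool, Pf4 went from 25.2 CPM (21.9 to 28.9) in Ctrl to 82.9 CPM (79.1 to 86.9) in RES, a log2 ratio of 1.72 (1.51 to 1.93). In macrophages the levels were 157 CPM and 175 CPM, a log2 ratio of 0.16 (-0.06 to 0.39). In C1q macrophages without Arg1 or Spp1 they were 122 CPM and 95.2 CPM, with an interval of the log2 ratio of -0.83 to 0.10. Pf4 is known as a platelet product, so platelet markers are given beside it. The 8 platelet genes summed to 8.80 CPM and 8.95 CPM in the monocytes and macrophages of Ctrl and RES, Gp1bb was at 0 in both, and Ppbp was at 1.33 CPM and 4.84 CPM. Clec1b went the other way, from 5.91 CPM in Ctrl to 2.49 CPM in RES. In RES macrophages with a Pf4 UMI the platelet list stood at 46.2 CPM and in those without one at 2.44 CPM. Of the 157 RES macrophages with a Pf4 UMI, 18 held a UMI of the list. The part of platelet RNA in the Pf4 level was not tested.

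The share of cells with at least 1 UMI was compared after thinning every cell to 2000 UMIs, with NK cells as the class that gives the background. The 52 Ccl9 UMIs of Ctrl NK cells came from 20 cells and made up 55.3% (44.7 to 65.6) of the Ccl6 and Ccl9 UMIs there, against 26.2% over all kept Ctrl cells; whether they are free RNA was not tested. Among monocytes and macrophages, Ccl6 was seen in 72.7% and 82.9% in Ctrl and RES (90.3% and 95.7% unthinned), against 1.47% and 5.03% of NK cells. Ccl9 was seen in 38.0% and 60.9% (65.5% and 83.9% unthinned), against 0.910% and 3.52% of NK cells. Ccl2 was seen in 2.27% and 7.38% (6.24% and 16.9% unthinned), against 0.0700% and 0.759% of NK cells. At this depth Ccl6 was thus found in most cells of both libraries, Ccl9 in most cells of RES only, and Ccl2 in a minority of both. Ccl24 was seen in 2.27% and 8.13%, Pf4 in 2.46% and 4.16%, and Ccl7 in 0.0947% and 1.24%. Median depths were 7476 and 9806 UMIs in monocytes and macrophages and 3286 and 4097.5 in NK cells. The NK level of Ccl6 was itself higher in RES, 7.60 CPM in Ctrl and 23.6 CPM in RES. Ccl6 was the 1 member past the minimum in NK cells, where 0.859% of genes were at least 1.5-fold higher. Since it passed through RES alone, its call there is only a description. For Ccl2 in nonclassical monocytes of RES the thinned share was 1.38% (0.56 to 2.83), and its interval overlapped that of RES NK cells (0.379 to 1.35).

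Clustering of the cells without the 8 genes separated a group, cluster 17, that held most of the Arg1/Spp1 macrophages and most of the RES counts of several members. It held 16 Ctrl and 631 RES cells of the monocyte and macrophage classes, so it is mostly of 1 library and may be a feature of that library. In RES, its cells carried 2179 of the 2636 Ccl2 UMIs (82.7%), 536 of the 547 Ccl7 UMIs (98.0%), 60.0% of Ccl6, 68.2% of Ccl9, 79.3% of Ccl24 and 86.4% of Pf4 UMIs. Inside it, the Ccl2 level was 285 CPM (200 to 395) for Ctrl cells and 285 CPM (273 to 297) for RES cells. The Ctrl level rested on 36 UMIs in 6 cells. Ccl6 was at 3740 CPM and 3329 CPM, Ccl9 at 959 CPM and 1840 CPM, Ccl24 at 2488 CPM and 376 CPM and Pf4 at 602 CPM and 195 CPM. Ccl7 had 0 UMIs in Ctrl, with an upper limit of 29.2 CPM, and 536 in RES, with an interval of 64.2 to 76.2 CPM. By counting intervals, Ccl7 and Ccl9 were higher in RES in these cells, and Ccl6, Ccl24 and Pf4 were lower. These intervals do not cover the clumping of UMIs in few cells. Only 51 of the 631 RES cells (8.08%) held a Ccl7 UMI, so 16 Ctrl cells with none cannot settle a difference in Ccl7. Outside cluster 17, in 1058 Ctrl and 1406 RES cells, Ccl2 was at 13.2 CPM (10.8 to 16.0) and 34.5 CPM (31.4 to 37.8). Ccl7 had 2 and 11 UMIs there.

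The gate for classical monocytes took in some of these cells. Of 601 RES classical monocytes 42 were in cluster 17, and they held 534 of the 894 Ccl2 UMIs and 45 of the 48 Ccl7 UMIs of the class, whereas only 2 of 487 Ctrl cells were there. The classical monocyte markers were at 4227 CPM in the 42 cells and at 4804 CPM in the other RES classical monocytes, and the C1q genes at 32.6 CPM and 10.9 CPM. Without cluster 17, the Ccl2 level of classical monocytes went from 19.9 CPM in Ctrl to 58.7 CPM in RES, a log2 ratio of 1.56 (1.20 to 1.94), and that of Ccl24 from 38.5 CPM to 9.78 CPM. In cluster 6, which held the most classical monocytes of both libraries (211 and 402), Ccl2 had 40 UMIs in Ctrl and 203 in RES. This is 25.3 CPM and 47.0 CPM, a log2 ratio of 0.89 (0.40 to 1.42). In those same cells the log2 ratio was 0.01 (-0.06 to 0.08) for Ccl6 and 0.12 (0.00 to 0.24) for Ccl9. Intermediate monocytes outside cluster 17 had 9.28 CPM and 8.53 CPM of Ccl2, so the difference given for that class above rested on 5 RES cells with 29 UMIs.

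Other clusters differed among the members as well. Cluster 22, with 77 RES and 0 Ctrl cells, carried Arg1 or Spp1 like cluster 17 but had Ccl2 at 14.7 CPM, with Ccl6 at 2126 CPM, Ccl9 at 1177 CPM and Ccl24 at 244 CPM. A high Arg1 or Spp1 count thus did not go with high Ccl2 in every RES cluster. Cluster 21, with 40 Ctrl C1q macrophages and none from RES, had Pf4 at 409 CPM and Ccl12 at 159 CPM beside Ccl6 at 340 CPM and Ccl9 at 37.2 CPM. It held 30 of the 47 Ccl12 UMIs of Ctrl monocytes and macrophages. Since each of these clusters is of 1 library, class and library cannot be told apart in them.

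To separate level from composition, the RES level of each class was weighted by that class's share of UMIs in Ctrl monocytes and macrophages. At the Ctrl makeup the log2 ratio was 2.63 for Ccl2 and 5.68 for Ccl7, against 2.86 and 6.76 as measured. For Ccl6 it was 0.43 and for Ccl9 0.58, against 1.11 and 1.70 as measured. For Ccl24 it was -0.73 and for Pf4 -0.41, the opposite direction from the measured 1.37 and 1.72. These signs rest on few Ctrl cells. Without the 5 highest Ctrl cells, 193 of 556 Ctrl UMIs of Ccl24 and 104 of 209 of Pf4 remained. The weighted ratio was not recomputed without them. Leaving the Arg1/Spp1 gates out gave 2.79 (2.51 to 3.09) for Ccl2, 4.95 (3.06 to 8.02) for Ccl7, 0.42 for Ccl6, 0.50 for Ccl9, -0.30 (-0.55 to -0.06) for Ccl24 and -0.90 (-1.27 to -0.54) for Pf4. Leaving cluster 17 out instead gave 1.39 (1.08 to 1.70) for Ccl2, 1.76 (-0.43 to 4.98) for Ccl7, 0.51 for Ccl6, 0.75 for Ccl9, 0.94 for Ccl24 and 0.13 (-0.18 to 0.45) for Pf4. The gates and the cluster thus give different values for Ccl2, whose counts in cluster 17 include cells that the monocyte gates hold, and opposite signs for Ccl24 and Pf4. For Ccl7 only the interval without cluster 17 reaches 0. All of these values were chosen after the data were seen.

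**Figure D2:**
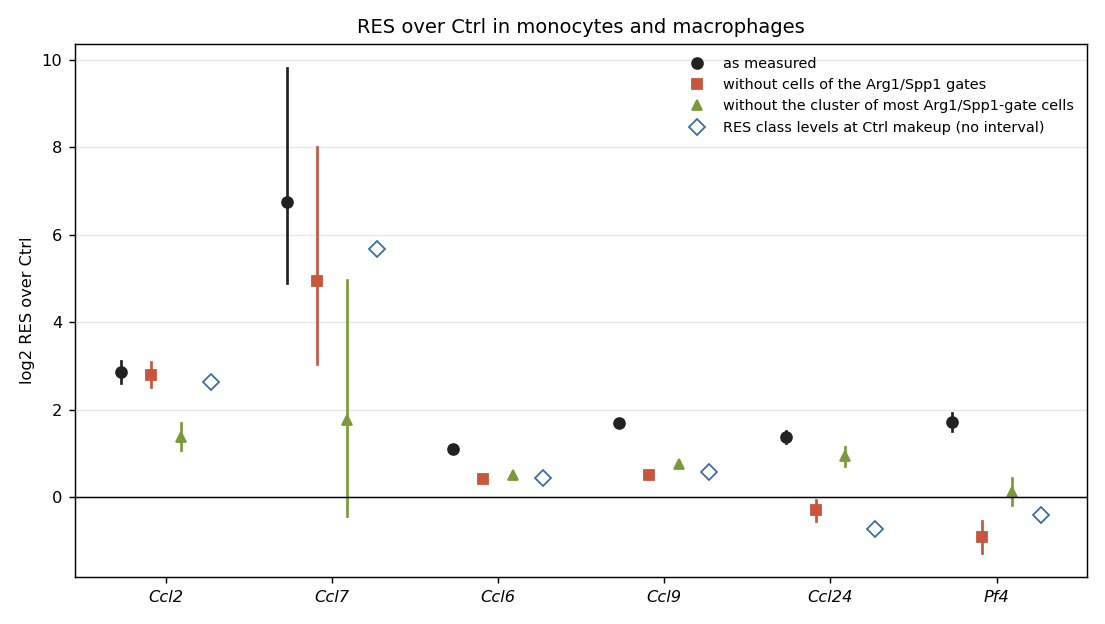
Log2 ratio of RES over Ctrl for 6 genes in monocytes and macrophages as measured, without the Arg1/Spp1 gates, without cluster 17, and at the class makeup of Ctrl; bars are exact 95% intervals where counts give one. Ccl2 lies between 2.63 and 2.86 except without cluster 17 (1.39), while Ccl24 and Pf4 fall below 0 without the Arg1/Spp1 gates and at the Ctrl makeup. The Ctrl levels of Ccl24 and Pf4 rest largely on few cells.

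Members differed in how many cells carried their counts. In monocytes and macrophages, 50% of the Ccl2 UMIs came from the 11 highest of 1074 cells in Ctrl and the 22 highest of 2037 in RES. For Ccl7 in RES it took 4 cells, for Ccl24 3 cells in Ctrl and 23 in RES, and for Pf4 5 and 12. For Ccl6 it took 191 and 272 cells, and for Ccl9 155 and 243. The counts of the Ccl6 and Ccl9 pair were spread over the population, and those of the other 4 came from few cells. Ccl2 was detected in 67 Ctrl and 344 RES cells, and the RES cell with the most held 114 UMIs. Leaving out the 5 highest cells of each library moved the log2 ratio of Ccl24 to 2.53 (2.32 to 2.75) and that of Pf4 to 2.15 (1.86 to 2.45).

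**Figure D3:**
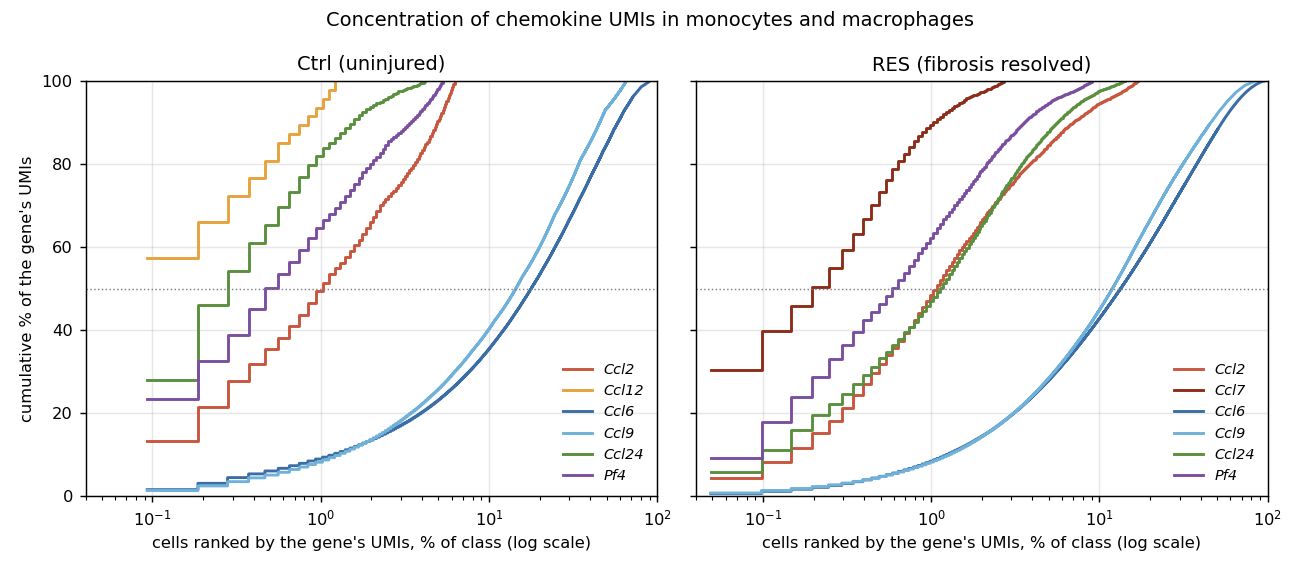
Cumulative percentage of each gene's UMIs over monocytes and macrophages ranked from the highest count to the lowest, with the percentage of cells on a log axis, for Ctrl and RES; Ccl7 in Ctrl and Ccl12 in RES, with under 20 UMIs, are left out. The curves of Ccl6 and Ccl9 climb slowly, and that of Ccl7 in RES reaches 50% within 4 cells.

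Within the RES library, cells were also ordered by their Arg1 and Spp1 UMIs per 10000, a measure that the members do not enter. From the 1002 cells with none to the 258 cells above 100, Ccl6 went from 1214 CPM to 3582 CPM and Ccl9 from 411 CPM to 2181 CPM, each higher in the last group than in any other. Ccl24 went from 9.43 CPM to 670.5 CPM and Pf4 from 10.8 CPM to 259 CPM. Ccl2 did not follow this order. It was at 93.5 CPM with none, 327 CPM in the 81 cells from 5 to 20, 119 CPM in the 226 cells from 50 to 100, and 197 CPM above 100. Ccl7 was at 87.6 CPM (69.3 to 109) from 5 to 20 and at 80.0 CPM (70.4 to 90.5) above 100, with overlapping intervals. Only 4.94% of the cells from 5 to 20 held a Ccl7 UMI, against 6.98% above 100, so its order is not resolved. In Ctrl, 10 cells were above 100, with Ccl24 at 4717 CPM and Pf4 at 1073 CPM.

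**Figure D4:**
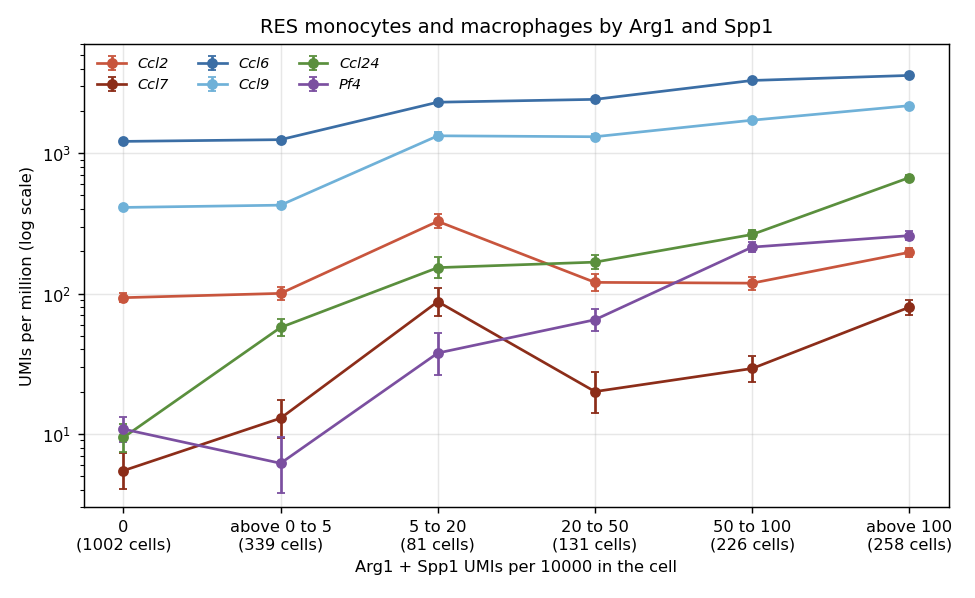
Level of 6 genes in RES monocytes and macrophages grouped by their Arg1 and Spp1 UMIs per 10000, in CPM on a log axis with exact 95% Poisson intervals. Ccl6, Ccl9, Ccl24 and Pf4 are highest in the last group, and Ccl2 and Ccl7 are highest in the group from 5 to 20.

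Cells with Ccl7 were mostly cells with Ccl2. Of the 45 RES macrophages with a Ccl7 UMI, 34 (75.6%, 60.5 to 87.1) also had a Ccl2 UMI, against 17.7% of those without Ccl7. Cells with Ccl2 held 96.8% of the Ccl7 UMIs of RES macrophages, and their median depth of 12596 UMIs was near the 11718 of cells without Ccl2. Ccl24 was seen in 31.4% (24.3 to 39.3) of cells with Ccl2 and in 34.2% of cells without it, a difference within the interval. Pf4 was seen in 26.5% (21.2 to 32.4) of cells with Ccl24 and in 90 of the 499 cells without it. Within RES macrophages the pair of neighbouring genes Ccl2 and Ccl7 thus shared cells. These are shares over cells of 1 library and carry counting error only.

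**Figure D5:**
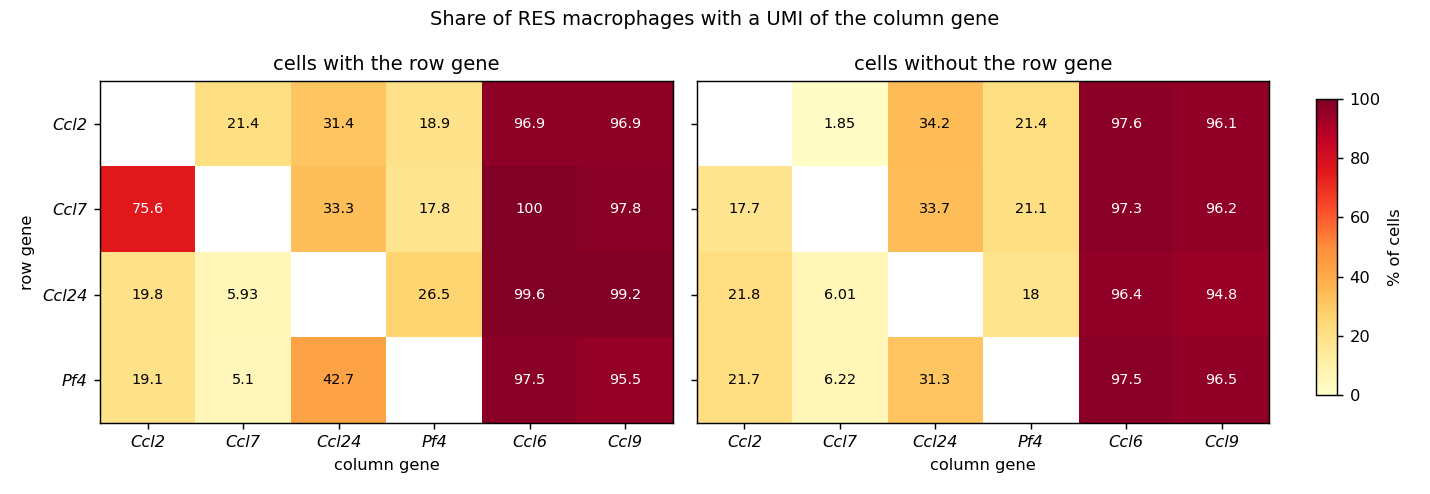
Percentage of RES macrophages with a UMI of the column gene among cells with a UMI of the row gene and among cells without one. Ccl2 is found in 75.6% of cells with Ccl7 and in 17.7% of cells without it, and the other pairs of Ccl2, Ccl7, Ccl24 and Pf4 differ by less.

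Dendritic cells expressed some of the members. In cDC2 cells Ccl6 was at 436 CPM and 378 CPM, a log2 ratio of -0.21 (-0.37 to -0.04), and Ccl9 at 208 CPM and 276 CPM, a log2 ratio of 0.41 (0.20 to 0.63). Pf4 in cDC2 cells had 19 UMIs in Ctrl and 29 in RES, a log2 ratio of 0.91 (0.02 to 1.82). It was the 1 of 3 members past the minimum to exceed 1.5-fold, where 7.89% of genes were higher and 5.07% lower. Since Pf4 passed through RES alone (11.4 CPM in Ctrl and 21.4 CPM in RES), its call there is only a description. In cDC1 cells Pf4 had 30 UMIs in Ctrl, 12 of them in 1 cell, and 0 in RES, at least 9.37-fold lower with RES at 3 counts. It was the 1 of 2 members past the minimum to be lower there, as 9.95% of genes were, and it passed through Ctrl alone. Platelet markers in cDC1 cells summed to 100.3 CPM and 38.1 CPM in the 2 libraries, and their part in the Pf4 count was not tested.

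For each member the 3 genes with the most similar level over 15 points (classes of at least 50 cells in a library) were listed among 4766 genes, by Pearson's r of log2(CPM + 10). The points share 2 libraries and their depth, so r only describes them. For Ccl2 these were Thbs1 (0.96), the gene of the matrix protein thrombospondin 1, Mgat2 (0.94) and Hif1a (0.94), and for Ccl7 Thbs1 (0.92), Psmc1 (0.92) and 2510009E07Rik (0.91). For Ccl6 they were Rin2, App and Tlr2 (each 0.98), and for Ccl9 Adam15, Cotl1 and Usf2 (each 0.96). For Ccl24 they were C3ar1, the C3a receptor (0.96), Mitf (0.96) and Mdfic (0.95), and for Pf4 Gatm (0.95), Basp1 (0.94) and Rpn1 (0.92). Between members, r was 0.95 for Ccl6 and Ccl9, 0.91 for Ccl2 and Ccl7 and 0.63 for Ccl2 and Pf4. Pairs that are not neighbours ran from 0.45 for Ccl6 and Pf4 to 0.88 for Ccl7 and Ccl24, with 0.87 for Ccl2 and Ccl24.

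The receptors of these chemokines were measured in the same cells. Ccr1, a receptor of Ccl6, Ccl9 and Ccl7, went from 21.8 CPM in Ctrl to 144 CPM in RES over monocytes and macrophages, a log2 ratio of 2.72, and from 70.3 CPM to 233 CPM in macrophages. Ccr2, which belongs to the classical monocyte gate, was at 1119 CPM and 1191 CPM. It was at 365 CPM and 361 CPM in NK cells, which the gate did not select by it. Ccr3, the receptor of Ccl24, had 6 and 9 UMIs in monocytes and macrophages, and Ccr8 had 0 in both. Ccrl2, an atypical chemokine receptor, had a log2 ratio of 0.29.

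The other chemokines and 2 lists of inducible genes show what else moved in these cells. Of 28 other chemokines listed, 8 passed the minimum in monocytes and macrophages, of which 2 exceeded 1.5-fold in RES and 4 in Ctrl. Over all genes past the minimum there, 6.95% were higher in RES and 4.99% lower. The median log2 ratio of the 8 was -0.66 against 0.03 over all genes. Cxcl14 passed through RES alone and Cxcl9 through Ctrl alone, so the count and the median are only a description. The interferon-induced Cxcl9 (506 CPM and 10.4 CPM, log2 ratio -5.61) and Cxcl10 (310.2 CPM and 29.0 CPM, -3.42) were lower in RES. The neutrophil chemoattractant Cxcl2 (63.1 CPM and 271 CPM, 2.10) and Cxcl14 (4.82 CPM and 37.4 CPM, 2.96) were higher. Of 15 feedback and target genes of nuclear factor kappa B, all 15 passed, Tnip3 (0.73) was higher and Icam1 (-0.59) lower, and the median was -0.08. Of 16 immediate-early genes 14 passed, 4 were higher and 0 lower. Their median was 0.26, and they ran from Fosb (-0.02) and Atf3 (0.01) to Egr2 (1.15) and Ier3 (1.42). Egr2 passed through RES alone (12.4 CPM in Ctrl and 27.5 CPM in RES), so this count too is only a description. Within macrophages 5 genes of the nuclear factor kappa B list were higher, Tnip3 among them (1.55), and 0 lower. Of all genes in that class, 16.4% were higher and 16.4% lower. Within classical monocytes 5 of the list were lower, Traf1 among them (-1.47), and 0 higher, against 3.57% of all genes higher and 4.68% lower.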

How the data were processed

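The authors deposited raw UMI counts per gene and barcode as matrices, written by Cell Ranger 3.1.0 per the file headers; the deposited gene and barcode files hold names. The submitters' processing notes name bcl2fastq, Cell Ranger and the build mm10, and the gene annotation is not given in the sources used here. From these counts, barcodes under 200 genes or above 10% mitochondrial UMIs were left out, as were Scrublet doublets (0.8% per 1000 barcodes; scanpy 1.11.5). Gates summed marker UMIs: a lineage needed 75% of lineage-marker UMIs and at least 10 UMIs (myeloid, NK) or 5 (T, B); subsets needed 5 and conventional dendritic cells 3. These minimums were set after the marker distributions were seen. Leiden clustering (resolution 1, 24 clusters, 8 mostly of monocytes and macrophages) used 1993 of 2000 variable genes, with 7 members left out, a choice made after seeing the data. Ratios compare summed UMIs over total UMIs of the same cells; a gene entered a count at 20 CPM in either library, and 1.5-fold was called. Since a group is 1 library, no difference was tested, and library and group cannot be told apart. Intervals are exact Poisson, conditional binomial or Clopper-Pearson (95%) and cover counting error only; a count of 0 allows 3 counts. The ratio computation was tested on simulated data. Members and lists were chosen with earlier results of these data known. All 8 members are named, from each list the 2 highest and 2 lowest ratios past the minimum, and for each member the 3 genes most like it; 1 gene of the receptor list is not reported here. Alternatives were a 5% mitochondrial limit, doublets kept, a median-ratio scaling, other gates, clusters in place of gates, and cells left out. Gene positions are from GENCODE M21 and promoter sequence from RefSeq.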

Additional observations from a re-analysis of the deposited data

Results flagged for a closer look

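Pf4 was higher in RES in cDC2 cells (log2 ratio 0.91, 19 and 29 UMIs) and lower in NK cells (-1.39, 15 and 7 UMIs), so the direction was opposite in these classes; the difference was not tested.

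Barcodes that the quality filters left out, 245 in Ctrl and 121 in RES, also carried members. The log2 ratio there was 1.3 for Ccl6 (51 and 70 UMIs), 1.57 for Ccl9 (32 and 53 UMIs) and 1.31 for Ccl24 (13 and 18 UMIs). For Pf4 it was -1.97 (14 and 2 UMIs), with an interval of -5.15 to 0.15 that includes 0, and for Ccl2 1.84 (3 and 6 UMIs), with an interval of -0.39 to 4.47. Ccl12 had 2 and 0 UMIs.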

How the results depend on the processing

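No paired analysis was possible because each group is 1 library, and no replicate could be left out. Over 303 recomputed ratios, 239 stayed within the interval of the reported one, 57 left it and 7 changed sign, and of 211 recomputed for results of at least 1.5-fold, 204 kept the direction and 200 stayed at least 1.5-fold. Scaling by a median ratio moved 0 of 48 values out of their interval, and a 5% mitochondrial limit or keeping doublets moved 1 of 48 each. Without the 5 highest cells of each library the log2 ratio over all kept cells was 3.59 for Ccl2, 1.57 for Ccl6 and 2.55 for Ccl24, and in monocytes and macrophages 3.20 for Ccl2, 1.15 for Ccl6, 2.53 for Ccl24 and 2.15 for Pf4. With doubled gate minimums it was 1.74 for Ccl24 and 1.99 for Pf4, and with classes from clusters 1.18 for Ccl6, 1.77 for Ccl9 and 1.17 for Ccl24. The following were chosen after seeing the data. Without the Arg1/Spp1 gates the log2 ratio over all kept cells was 2.96 for Ccl2, 5.52 for Ccl7, 0.64 for Ccl6, 0.70 for Ccl9, -0.27 for Ccl24 and -0.59 for Pf4, and in monocytes and macrophages 0.42 for Ccl6, 0.50 for Ccl9, -0.30 for Ccl24 and -0.90 for Pf4. Without cluster 17 it was 1.39 for Ccl2, 1.76 for Ccl7, 0.51 for Ccl6, 0.75 for Ccl9, 0.94 for Ccl24 and 0.13 for Pf4. Changes of sign elsewhere were Ccl2 in intermediate monocytes, -0.12 with gates on UMIs scaled to 5000 per cell (5 and 5 UMIs) and -0.53 with doubled minimums (4 and 4 UMIs), and Pf4 in cDC2 cells, -2.26 without the 5 highest cells (6 and 1 UMIs); the cause was not tested. With 1 UMI in each library in place of the minimum, 1697 genes were at least 1.5-fold higher and 2960 lower over all kept cells, and 1720 and 2352 in monocytes and macrophages, against 376 and 232, and 415 and 298, and the median of the receptor list was 0.19 in place of 0.87. Depth limits Ccl8, Ccl12 and, in Ctrl, Ccl7 to a few UMIs.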

Other observations

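Genes that stood beside a member within a class were listed after the values were seen, as a description of cells of 1 library. In RES classical monocytes, the 150 cells with a Ccl2 UMI had higher levels than the 451 without one of Thbs1 (log2 difference 1.86), of the chemokine gene Ccl4 (1.75), of Tgm2 (1.73), of the cytokine gene Il1b (1.73) and of Ier3 (1.26). In Ctrl classical monocytes, the 42 cells with a Ccl2 UMI had higher Retnla (3.74), the interferon-induced Cxcl10 (2.71) and Iigp1 (2.52), Socs1 (2.36) and Egr1 (2.34) than the other 445. Ccl4 was higher in these Ctrl cells too (2.28). H2-Eb1 was lower in the classical monocytes with a Ccl2 UMI of both libraries (-1.55 in Ctrl and -0.90 in RES).

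In RES macrophages, the 253 cells with Ccl24 had higher Timp1 (1.06), Chil3 (0.84) and Retnla (0.83) than the 499 without it, and the 157 cells with Pf4 had higher Retnla (1.90), Cd36 (0.96) and Maf (0.91) than the other 595. In Ctrl macrophages, the 39 cells with Pf4 had the C1q genes at 9908 CPM against 3528 CPM in the other 95, and higher Ccl3 (2.96), Cd207 (2.84), Ccl4 (2.68) and Mmp13 (2.60). Median depth was 4943 UMIs in these 39 cells and 9057 in the other 95, whereas in RES macrophages with and without Pf4 it was 12202 and 11764. Retnla, a gene of alternatively activated macrophages, did not go with the members in 1 direction: it was lower in RES macrophages with Ccl2 than in those without (76.9 CPM and 192 CPM, -1.22), and lower in Ctrl macrophages with Pf4 (414 CPM and 1587 CPM, -1.91), but higher in RES macrophages with Pf4, as given above.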
